A study of Mus musculus with 4 samples.

Results

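The data described here are the mRNA levels of 10 genes of fatty acid uptake and oxidation in mouse heart, taken from 23238 distinct gene symbols in 23282 rows. The genes were chosen by name, with earlier results of these data known. Cd36, Slc27a1 and Fabp3 act in uptake and intracellular binding, and Cpt1b and Cpt2 in entry into mitochondria. Acadvl, Acadl, Acadm, Hadha and Hadhb act in beta-oxidation. All 10 were found, with 1 value in each of 4 heart libraries. The libraries were the normal control E(−)T(−), labelled E-&T-, the normal exercise group E(+)T(−), labelled E+&T-, the cancer control E(−)T(+), labelled E-&T+, and the cancer exercise group E(+)T(+), labelled E+&T+. All 4 came from CDF1 mice with a labelled age of postnatal day 28. The study's methods give 4 weeks as the age at purchase and place sacrifice at the end of the experiment. The label is thus not the age at sacrifice. The study's methods describe males, 10 per group, in which T(+) mice received CT26 cells, a mouse colorectal carcinoma line, through the tail vein, and E(+) mice ran at high intensity on a treadmill every other day. How many hearts entered a library is not given in the sources used here, and injected tumor cells are a model of blood-borne spread that skips the primary tumor. With 1 library per group, no difference below has a replicate check and no test was made.

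The adult heart takes most of its energy from long-chain fatty acids. CD36 and the transport protein FATP1, encoded by Slc27a1, bring them across the plasma membrane, and FABP3 carries them through the cytoplasm. After activation to acyl-CoA, CPT1B on the outer mitochondrial membrane exchanges CoA for carnitine, and CPT2 on the inner membrane restores the acyl-CoA inside the matrix. The acyl-CoA dehydrogenases ACADVL, ACADL and ACADM then take very long, long and medium chains in turn, and the trifunctional protein, built of HADHA and HADHB, completes the cycle for long chains. Many of these genes are known targets of the nuclear receptor PPARα and of its coactivator PGC-1α.

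In the GRCm38.p6 assembly the genes lie apart except for one pair. Hadha, chr5:30119423-30154980 on the minus strand, and Hadhb, chr5:30155253-30184593 on the plus strand, start back to back with 272 bases between their starts. Cd36 is also on this chromosome, at chr5:17781690-17888959. Slc27a1 lies at chr8:71568728-71587307, Fabp3 at chr4:130308738-130315463 and Cpt2 at chr4:107903982-107923589. Cpt1b occupies chr15:89416405-89425862, Acadvl chr11:70010183-70015428, Acadl chr1:66830839-66863309 and Acadm chr3:153922353-153944643.

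Upstream sequences from RefSeq are shown for the pair that shares a start region and for Cpt2 and Fabp3, which with Hadhb differed most between the cancer control and the normal control. Each is 5′ to 3′, with the GC box GGGCGG in capitals where it occurs on the printed strand. The first is the whole stretch between the Hadha and Hadhb starts, chr5:30154981-30155252, plus strand. The others are the 250 bases before the start of Cpt2, chr4:107923590-107923839, minus strand, and of Fabp3, chr4:130308488-130308737, plus strand.
Hadha and Hadhb: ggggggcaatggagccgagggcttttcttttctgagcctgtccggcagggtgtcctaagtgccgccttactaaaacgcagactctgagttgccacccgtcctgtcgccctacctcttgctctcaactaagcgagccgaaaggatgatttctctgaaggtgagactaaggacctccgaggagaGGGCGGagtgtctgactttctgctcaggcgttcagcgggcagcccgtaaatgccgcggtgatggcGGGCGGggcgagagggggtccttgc
Cpt2: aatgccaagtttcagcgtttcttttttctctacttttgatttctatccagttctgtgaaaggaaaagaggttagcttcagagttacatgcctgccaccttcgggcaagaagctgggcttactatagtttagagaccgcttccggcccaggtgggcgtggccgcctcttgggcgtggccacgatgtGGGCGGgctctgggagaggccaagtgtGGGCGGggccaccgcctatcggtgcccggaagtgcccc
Fabp3: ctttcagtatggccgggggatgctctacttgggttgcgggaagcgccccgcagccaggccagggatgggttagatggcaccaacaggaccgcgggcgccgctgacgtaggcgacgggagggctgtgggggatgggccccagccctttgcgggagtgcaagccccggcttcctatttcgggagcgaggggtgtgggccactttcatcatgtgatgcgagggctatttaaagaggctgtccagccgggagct
The stretch between Hadha and Hadhb and that of Cpt2 hold 2 GC boxes each, and that of Fabp3 holds none.

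Motifs were searched on both strands of RefSeq start windows that run from 250 bases before to 50 bases after a start, of which 9 of the 10 genes had at least 1, in 11 windows. The GC box occurred in windows of Acadl, Cd36, Cpt2, Hadha, Hadhb and Slc27a1, which is 7 of 11 windows beside 35.7% of all 32851 windows. The windows of Hadha and Hadhb overlap and share a GC box, and Slc27a1 has more than 1 window, so the 11 windows are not independent. The nuclear receptor half-site AGGTCA was found in windows of Acadm, Acadvl and Cd36, beside 16.3% of all windows. CCAAT was found in windows of Cd36 and Slc27a1, beside 37.4%. No window of the 10 genes matched a direct repeat of this half-site with 1 base between the copies, the consensus element of PPAR and RXR, nor TNAAGGTCA, the consensus of estrogen-related receptors, which also contains the half-site. These motifs occur in 0.0396% and 1.28% of all windows, so no match in 11 says only that the letters are not there.

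The libraries were QuantSeq libraries, which read the 3′ end of each transcript, so that a read count does not grow with transcript length. Totals of recovered reads ranged from 6595427 in E(−)T(−) to 11546046 in E(+)T(+). Globin transcripts took 7.86 to 8.76% of reads in 3 libraries and 37.3% in E(+)T(+), which therefore stands apart. All 13 cardiomyocyte markers were read in all 4 libraries, with summed levels of 559272 to 638354 normalized reads. The sum of 8 white adipocyte markers was 3559, 1093, 627 and 3167 normalized reads in the order of the groups above. Lep, the leptin gene, was at 0 reads in all libraries but E(−)T(−), and Plin1, which coats adipocyte lipid droplets, was at 0 in E(−)T(+). Ucp1, the defining brown adipocyte gene, had 814 reads in E(+)T(+) and 0 elsewhere, while the 5 brown adipocyte markers summed to 15325 normalized reads there and to 9283 to 10356 elsewhere, of which Cox8b, also a heart gene, had most. Sums of 9 endothelial markers were 9016, 7328, 7797 and 9509 normalized reads in the same order. The 8 fibroblast markers summed to 25618, 30628, 55390 and 32252, the 10 leukocyte and macrophage markers to 2893, 3750, 8816 and 8747, and the 7 skeletal muscle markers to between 29 and 66. The 8 erythroid markers summed to 616328 to 635940 in 3 libraries and to 4458819 in E(+)T(+). The atrial gene Myl7 had 650, 1896, 779 and 2079 reads, so both E(+) libraries held more of it.

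In the same order of groups the 10 genes took 0.955, 0.924, 0.52 and 0.56% of all reads. Outside globins the shares were 1.05, 1.01, 0.564 and 0.893%. The cancer control was the lowest on both counts, and the cancer exercise library lay nearer to the normal libraries once globins were set aside. Fabp3 alone made up 51.7, 54.8, 43.8 and 56.6% of the reads of the 10 genes.

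Levels below are normalized reads, in the order E(−)T(−), E(+)T(−), E(−)T(+), E(+)T(+). CD36 is the main long-chain fatty acid translocase of cardiomyocytes and capillary endothelium. Cd36 stood at 5126, 4172, 4740 and 6751, highest in E(+)T(+) and lowest in E(+)T(−). Fabp3, the heart-type fatty acid binding protein, stood at 37354, 38832, 19148 and 40007. The cancer control lay far under the other libraries, which were close together. Slc27a1 stood at 37.6, 11.6, 32.7 and 18.7, from 33, 13, 37 and 17 reads. Both E(+) libraries were lower in Slc27a1 than both E(−) libraries, but the 95% counting interval of E(+)T(+) overlapped with those of both E(−) libraries.

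Cpt1b, the muscle form of the rate-limiting carnitine palmitoyltransferase, stood at 1768, 1784, 1391 and 1650. E(−)T(+) was again the lowest, and the intervals of E(−)T(−) overlapped with those of both E(+) libraries. The data also list a read-through entry ChkbCpt1b with 1636, 2061, 1715 and 1617 reads beside 1543, 1973, 1577 and 1509 of Cpt1b, so the same reads may have been counted under both symbols. Cpt2, its inner-membrane partner, stood at 746, 813, 265 and 513. Cpt2 was lowest in E(−)T(+), intermediate in E(+)T(+) and highest in the 2 normal libraries, whose intervals overlapped.

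Acadvl, which opens the oxidation of very long chains at the inner membrane, stood at 3850, 3668, 2797 and 4135. Acadl, the long-chain dehydrogenase, stood at 7760, 7205, 6186 and 6774. Both were lowest in E(−)T(+), although the range of Acadl was narrow. Acadm, the medium-chain enzyme, stood at 4979, 4302, 3129 and 2698. It was the only one of the 10 genes with its lowest value in E(+)T(+), and no 2 of its 4 intervals overlapped. Exons of Acadvl overlap Dvl2 on the opposite strand, which had 30 to 65 reads, and the 3′ end of Fabp3 overlaps Zcchc17, which had 353 to 474. The strand setting of the counting is not given in the sources used here.

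Hadha, the subunit with the hydratase and hydroxyacyl-CoA dehydrogenase activities, stood at 7155, 6964, 4320 and 5752. Hadhb, the thiolase subunit, stood at 3412, 3054, 1686 and 2403. Both subunits had the same order of libraries, with E(−)T(−) first and E(−)T(+) last. Of the 10 genes, 7 had their lowest value in the cancer control, the exceptions being Acadm, Cd36 and Slc27a1.

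Within a library Fabp3 was the most abundant of the 10 transcripts and Slc27a1 the least abundant in each of the 4. Acadl was second throughout, and Hadhb, Cpt1b, Cpt2 and Slc27a1 held places 7 to 10 in this order in all 4 libraries. The middle places changed: Cd36 held place 4 in the normal control, place 5 after exercise and place 3 in both T(+) libraries. Counting intervals of neighbours overlapped for Cd36 and Acadm in both normal libraries, for Acadl and Hadha in E(+)T(−), and for Acadl and Cd36 in E(+)T(+). These are levels on the log2 scale of 3′-end reads, and unequal priming of the transcripts would enter them.

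**Figure D1:**
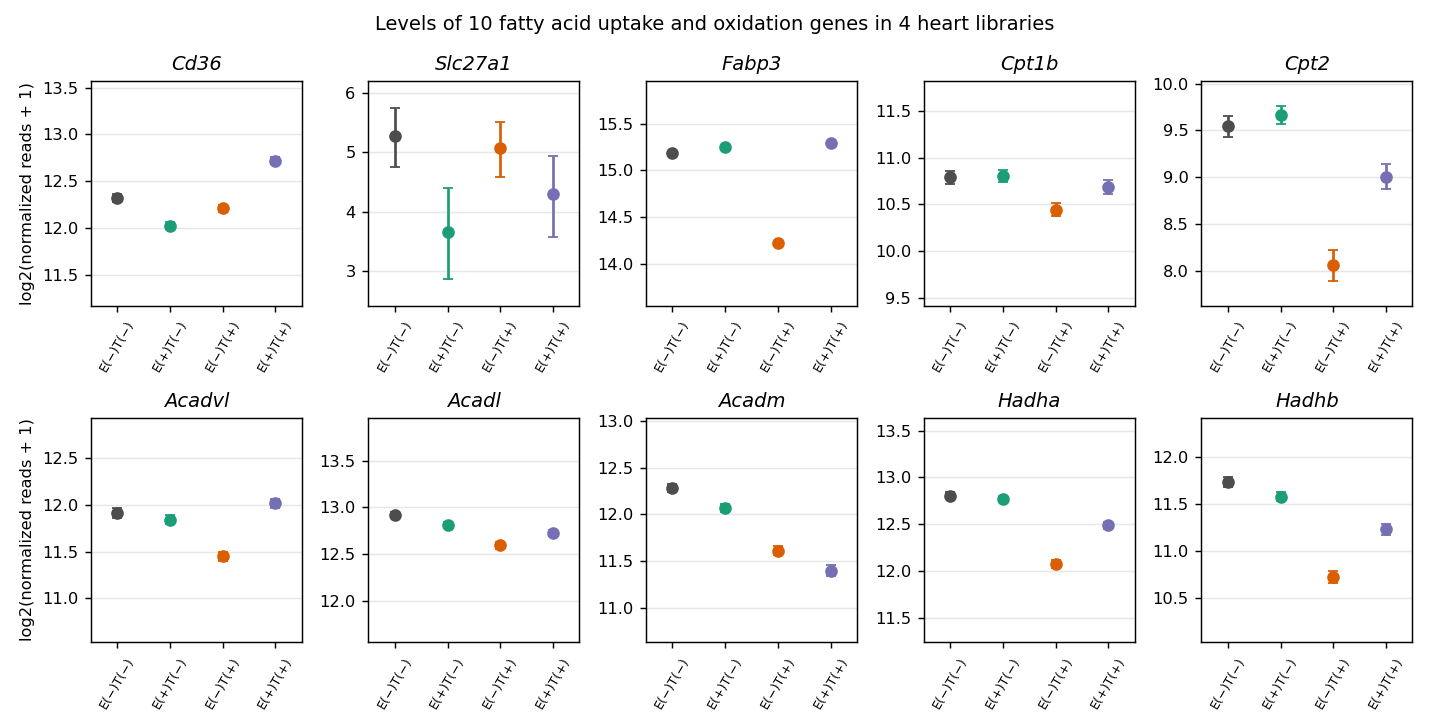
Levels of the 10 genes in the 4 libraries, as log2(normalized reads + 1) on the vertical axes, with 1 panel per gene. All panels but that of Slc27a1 span the same range, and no axis starts at 0. Points are single libraries and bars are 95% Poisson counting intervals. The orange E(−)T(+) point is the lowest in the panels of Fabp3, Cpt1b, Cpt2, Acadvl, Acadl, Hadha and Hadhb, and the E(+)T(+) point is the lowest for Acadm.

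The first question of the design is what exercise did in mice without cancer, E(+)T(−) vs. E(−)T(−). Slc27a1, the FATP1 gene, was lower after exercise, and the other 9 genes lay within 1.23-fold of the control. The genes Cd36, Acadm, Hadhb and Acadl were slightly lower, by 1.08 to 1.23-fold. A fold change here is the difference of log2 values, and its interval is the 95% Clopper-Pearson interval of the ratio of reads, which covers counting error only, without animal variation or PCR copies.

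Slc27a1 was 3.06-fold lower, which is −1.61 on the log2 scale (−2.74 to −0.72). It was the only one of the 10 past 2-fold, while 6.4% of the 13930 genes tested were past 2-fold lower and 12.3% in either direction. Among the 5934 genes with at least 100 normalized reads in every library, which leave out Slc27a1, 1.03% were past 2-fold in either direction. Tested genes had at least 4 normalized reads in 1 of the 2 libraries, and all 10 passed this minimum in every comparison. The log2 fold change of Cd36 was −0.30 (−0.36 to −0.24) and that of Acadm −0.21 (−0.27 to −0.15). For Hadhb it was −0.16 (−0.23 to −0.09), for Acadl −0.11 (−0.15 to −0.06) and for Acadvl −0.07 (−0.14 to −0.0037). These 5 values lay under 0 beyond counting error yet were small. Fabp3 was higher by 0.06 (0.04 to 0.08). For Hadha at −0.04 (−0.09 to 0.01), Cpt1b at 0.01 (−0.08 to 0.11) and Cpt2 at 0.12 (−0.02 to 0.27) no difference was detectable at this depth. The median of the 10 was −0.09 beside 0.002 over all genes tested, with 3 higher and 7 lower, beside 50.3% higher and 49.6% lower over all genes. Cpt1b turned to lower under 3 other scalings. Fabp3 fell to 0.01, outside its interval, when reads were scaled without the genes over 1% of a library.

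Of the 84 other fatty acid genes in 8 lists, 81 passed the minimum, with a median of −0.13, and 22 were higher and 58 lower. Past 2-fold were 1 higher and 4 lower. Of the 8 lists, PPAR target genes had the median farthest from 0, −0.41, with 7 of 8 lower. Angptl4, an inhibitor of lipoprotein lipase, was lower by 2.41 on the log2 scale (138 and 32 reads) and Pdk4, the kinase that shuts pyruvate dehydrogenase, had −1.04 (141 and 86 reads). Acaca, an acetyl-CoA carboxylase that makes malonyl-CoA and is abundant in fat, had −2.03 (284 and 87 reads). Both Angptl4 and Acaca are also expressed in adipocytes, and all 8 white adipocyte markers were past 2-fold lower in this comparison, with a median of −2.16. The part of those cells in the result was not tested. In bulk tissue, fewer cells of a type and less RNA per cell cannot be told apart.

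In malonyl-CoA and AMPK control 9 of 9 genes were lower, median −0.17, and in triglyceride storage and lipolysis 6 of 7 were lower and 0 higher, median −0.23. The carnitine shuttle went the other way, with 4 of 5 higher and a median of 0.20. Its member Cpt1c, a form found mainly in neurons and named after its values were seen, had 0 and 6 reads. In mitochondrial beta-oxidation 6 of 15 were higher and 9 lower, median −0.03, with Acad9 at −0.33 and Acad11 at −0.28 at the end of the range. The endothelial lipase anchor Gpihbp1 had −0.37 and the adipocyte and endothelial binding protein Fabp4 −0.41. The tricarboxylic acid cycle and glucose lists had medians of −0.01 and 0.01. The peroxisomal genes Hsd17b4 and Acox3 had −0.43 and −0.39, and Rxra, the partner of PPARα, −0.43. Endothelial markers had a median of −0.35 in the same comparison, and their part in the values of Cd36 and Gpihbp1 was not tested.

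The second question is what exercise did in mice that carried cancer, the comparison of E(+)T(+) with E(−)T(+). Here 8 of the 10 genes were higher in the exercised library and 2, Acadm and Slc27a1, were lower. Fabp3 was 2.09-fold higher and Cpt2 1.93-fold higher, followed by Acadvl, Hadhb and Cd36. These directions hold for normalized reads and turn for 6 genes (Acadl, Acadvl, Hadha, Hadhb, Cpt1b and Cd36) when reads are scaled to library size, where the median of all genes was −0.601 and positive differences smaller than this shift turned negative.

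Fabp3 had a log2 fold change of 1.06 (1.04 to 1.09) and was the only one of the 10 past 2-fold. Of 14357 genes, 9.39% were past 2-fold higher and 19.4% in either direction. Among the 5934 genes with at least 100 normalized reads in every library, 4.06% were past 2-fold in either direction. The call of Fabp3 was lost on library size, at 0.48, with values centred on the cardiomyocyte markers, at 0.79, and narrowly without the genes over 1% of a library. In the first and second of these Slc27a1 was past 2-fold lower instead, at −1.33 and −1.05. Cpt2 had 0.95 (0.74 to 1.16), with the 2-fold line inside its interval. Acadvl had 0.56 (0.50 to 0.63), Hadhb 0.51 (0.42 to 0.60) and Cd36 0.51 (0.46 to 0.56). The intervals of these 3 genes overlapped one another. Hadha had 0.41 (0.36 to 0.47), Cpt1b 0.25 (0.14 to 0.35) and Acadl 0.13 (0.08 to 0.18). Acadm, by contrast, was lower by 0.21 on the log2 scale (−0.29 to −0.14), and Slc27a1 had −0.78 (−1.73 to 0.05), from 37 and 17 reads. The median of the 10 was 0.46 beside −0.012 over all genes, with 49.1% of all genes higher and 50.8% lower. The median of the 10 lay 0.47 above that of all genes, and 0.48 above it when reads were scaled to library size.

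The 13 cardiomyocyte markers had a median of 0.27 in this comparison, and with values centred on them the median of the 10 genes was 0.19, with Acadl and Cpt1b turned to lower. White adipocyte markers had a median of 2.99, with 7 of 7 past 2-fold higher. Brown adipocytes express fatty acid oxidation genes at high levels, and Ucp1 was read in E(+)T(+) alone. Fibroblast markers had a median of −1.26 and erythroid markers of 2.93. The part of any of these cells in the result was not tested.

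Other fatty acid genes moved in the same direction as most of the 10. Of 82 that passed the minimum, 60 were higher and 22 lower, median 0.35, and 9 were past 2-fold higher and 4 lower. Scaled to library size, 23 of them were higher and 58 lower, median −0.24, which is 0.36 over the median of all genes on that scale. In the mitochondrial beta-oxidation list 15 of 15 were higher, median 0.40, but 2 of 15 when scaled to library size. Acads, the short-chain dehydrogenase, had 0.69 (0.57 to 0.82) and Eci1, an enoyl-CoA isomerase for unsaturated chains, 0.56 (0.47 to 0.65). Acsl1, the main acyl-CoA synthetase of heart, had 0.78 (0.69 to 0.87), and Crat, which moves acetyl groups onto carnitine, 0.73 (0.57 to 0.89). The carnitine shuttle list, to which Crat belongs, had a median of 0.05, with 3 of 5 higher, and the median was under 0 on library size, at −0.53, without the genes over 1% of a library and when centred on the cardiomyocyte markers. In it the carnitine importer Slc22a5 had 1.66 (0.65 to 2.95) from 10 and 27 reads, Slc25a20, the carnitine carrier of the inner membrane, −0.11 (−0.27 to 0.04), and Cpt1c 10 and 3 reads.

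Of the 8 fatty acid lists, PPAR target genes had the largest median of this comparison, 1.01, with 6 of 8 higher. Ucp3, a mitochondrial carrier of muscle, had 2 reads in E(−)T(+) and 25 in E(+)T(+), a log2 fold change of 3.46 (1.95 to 7.08). Angptl4 had 3.04 (1.89 to 4.94) from 5 and 38 reads. Among regulators Ppargc1a, which encodes PGC-1α, was higher by 1.27 (1.12 to 1.42) and Klf15, a cofactor of PPARα in heart, was lower by 1.45 on the log2 scale (−1.82 to −1.11). Of the genes of malonyl-CoA and AMPK control, Acacb had 0.82, whereas the AMPK subunit gene Prkab2 had −1.15. The product of Acacb makes the malonyl-CoA that blocks CPT1B. In triglyceride storage and lipolysis 6 of 7 were higher, median 0.90, led by Mgll, the monoglyceride lipase, at 1.43 and Dgat2 at 0.92. Tricarboxylic acid cycle genes had a median of 0.29 and glucose genes 0.33, both under the 0.46 of the 10 fatty acid genes, and both turned on library size, to −0.30 and −0.26. The median of cardiomyocyte markers, 0.27, lay next to them.

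The third question is the effect of cancer without exercise, E(−)T(+) vs. E(−)T(−). All 10 genes were lower in the cancer library on normalized reads, and only Cd36 turned to higher when values were centred on the cardiomyocyte markers. Cpt2 was 2.8-fold lower and Hadhb 2.02-fold lower, and Fabp3, 1.95-fold lower, lay just inside the 2-fold line. Cd36 and Slc27a1, both uptake genes, had the smallest differences, but the interval of Slc27a1, from 33 and 37 reads, was wide. The E(−)T(+) library is the reference of the preceding comparison, so the higher values there and the lower values here share it.

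The log2 fold change of Cpt2 was −1.49 (−1.69 to −1.29), that of Hadhb −1.02 (−1.10 to −0.93) and that of Fabp3 −0.96 (−0.99 to −0.94). Past 2-fold lower were thus 2 of the 10 genes, beside 13.1% of 14311 genes tested in this direction and 27.6% in either. Hadha, the partner subunit, had −0.73 (−0.78 to −0.67) and Acadm −0.67 (−0.73 to −0.61). The interval of Hadha did not overlap with that of Hadhb, so that the 2 subunits of the same protein differed unequally. Acadvl had −0.46 (−0.53 to −0.39), Cpt1b −0.35 (−0.45 to −0.24) and Acadl −0.33 (−0.38 to −0.28). Cd36 had −0.11 (−0.17 to −0.06). For Slc27a1, at −0.20 (−0.93 to 0.51), no difference was detectable at this depth. The median was −0.57 beside −0.012 over all genes, with 49.4% of all genes higher and 50.6% lower.

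Among the 5934 genes with at least 100 normalized reads in every library, 48.4% were lower and 10.7% past 2-fold in this comparison. Fibroblast markers had a median of 1.13 here, leukocyte and macrophage markers of 1.62 and cardiomyocyte markers of −0.12. With values centred on the cardiomyocyte markers the median of the 10 genes was −0.45, and 1 gene, Cpt2, remained past 2-fold. White adipocyte markers were past 2-fold lower in 8 of 8, with a median of −3.51. What part these cells had was not tested.

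Of the other fatty acid genes, 21 were higher and 60 lower of 81, median −0.61, with 3 past 2-fold higher and 18 past 2-fold lower. Mitochondrial beta-oxidation had a median of −0.69 with 13 of 15 lower. Etfdh, which passes electrons from the dehydrogenases to ubiquinone, had −1.05 (−1.19 to −0.92) and Acad9, an assembly factor of complex I as well as a dehydrogenase, −1.04 (−1.41 to −0.70). Acsl1 had −1.09 (−1.18 to −1.01) and Acsl4, the synthetase with a preference for arachidonic acid, 1.17 (0.92 to 1.45). The carnitine shuttle divided, with 3 of 5 higher and a median of 0.08, which turned to −0.08 on library size and without the genes over 1% of a library. In it Slc22a5 had −1.50 (−2.81 to −0.45) and Crat −0.79 (−0.95 to −0.63), while Cpt1c had 0 reads in the normal and 10 in the cancer control. Of peroxisomal genes 10 of 11 were lower, with Acox3 at −1.41 and Acaa1b at −1.08, the latter from 22 and 13 reads that may be shared with its close copy Acaa1a.

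In transcriptional control 4 genes were higher and 10 lower, with a median of −0.38. Klf15 was past 2-fold higher, at 1.17 (0.85 to 1.52). Ppara had 553, 866, 258 and 409 reads in the 4 libraries and a log2 fold change of −1.48 (−1.70 to −1.26), and Rxrg, which encodes an RXR partner of muscle, −1.34 (−1.55 to −1.14). PPAR target genes had a median of −0.82, with 7 of 8 lower. Angptl4 had −4.93 (−6.81 to −3.91) from 138 and 5 reads, and Ucp3 −4.31 (−7.93 to −2.90) from 44 and 2 reads. Acaca had −2.23 and Acacb −1.23, so both carboxylase genes were past 2-fold lower. Mgll had −1.72 (−1.81 to −1.62) and Dgat2, which completes triglycerides, −1.18 (−1.32 to −1.05). The tricarboxylic acid cycle list had a median of −0.28 (Dlst −0.73, Suclg1 −0.62) and the glucose uptake and glycolysis list −0.14. In the latter Slc2a1, the insulin-independent glucose transporter GLUT1, had 1.31 (0.94 to 1.72) and Pfkl −1.05 (−1.27 to −0.84).

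The last question is the effect of cancer among exercised mice, E(+)T(+) vs. E(+)T(−). On normalized reads 4 genes were higher and 6 lower, and none was past 2-fold. Cd36 was 1.62-fold higher, whereas Acadm and Cpt2 were 1.59-fold and 1.58-fold lower. Fabp3 differed by 1.03-fold. Acadvl, Cd36, Fabp3 and Slc27a1, the 4 higher genes, all turned to lower when reads were scaled to library size, where the median of all genes was −0.74 and positive differences smaller than this shift turned negative. Acadvl and Fabp3 also turned when reads were scaled without the genes over 1% of a library, and Fabp3 when values were centred on the cardiomyocyte markers.

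Cd36 had a log2 fold change of 0.69 (0.64 to 0.75), Acadm −0.67 (−0.74 to −0.60) and Cpt2 −0.66 (−0.83 to −0.50). Past 2-fold in either direction were 23.0% of 14282 genes and 0 of the 10. Among the 5934 genes with at least 100 normalized reads in every library, which leave out Slc27a1, the share was 5.8%. Hadhb had −0.35 (−0.42 to −0.27) and Hadha −0.28 (−0.33 to −0.23), with overlapping intervals. Acadvl had 0.17 (0.11 to 0.24), Cpt1b −0.11 (−0.21 to −0.02), Acadl −0.09 (−0.14 to −0.04) and Fabp3 0.04 (0.02 to 0.06). Slc27a1, from 13 and 17 reads, had 0.64 (−0.47 to 1.82) and no detectable difference. The median was −0.10 beside −0.009 over all genes, with 49.4% of all genes higher and 50.5% lower.

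Other fatty acid genes divided evenly on normalized reads, 39 higher and 43 lower of 82, median −0.04, with 2 past 2-fold higher and 3 lower. Scaled to library size, 1 was higher and 80 lower, median −0.76, which lay −0.02 from the median of all genes on that scale. Without the genes over 1% of a library and when centred on the cardiomyocyte markers, 26 were higher and 56 lower, with medians of −0.22 and −0.21. Mitochondrial beta-oxidation had 7 higher and 8 lower, from Etfdh at −0.62 to Hsd17b10 at 0.46, but 0 higher and 15 lower on library size. Gpihbp1 was higher by 1.14 (1.03 to 1.24), and Slc27a4, another transport protein gene, had −0.73 (−1.13 to −0.35). Pparg had −1.09 (−1.62 to −0.61) and Ppara −0.81 (−0.98 to −0.64), while PPAR target genes had a median of 0.14, with Plin5, a lipid droplet coat protein of oxidative tissue, at 0.70 and Acot1, whose reads may be shared with its close copy Acot2, at 0.68. Prkab2 had −1.91, and Lipe, the hormone-sensitive lipase, 0.67. Peroxisomal Hsd17b4 had −0.66 and Amacr −0.64, and Sdhd, a subunit of succinate dehydrogenase, −1.58. White adipocyte markers had a median of 1.86, brown adipocyte markers of 1.10 with 5 of 5 higher, and endothelial markers of −0.01. Their part in the values of Cd36 and Lipe was not tested.

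**Figure D2:**
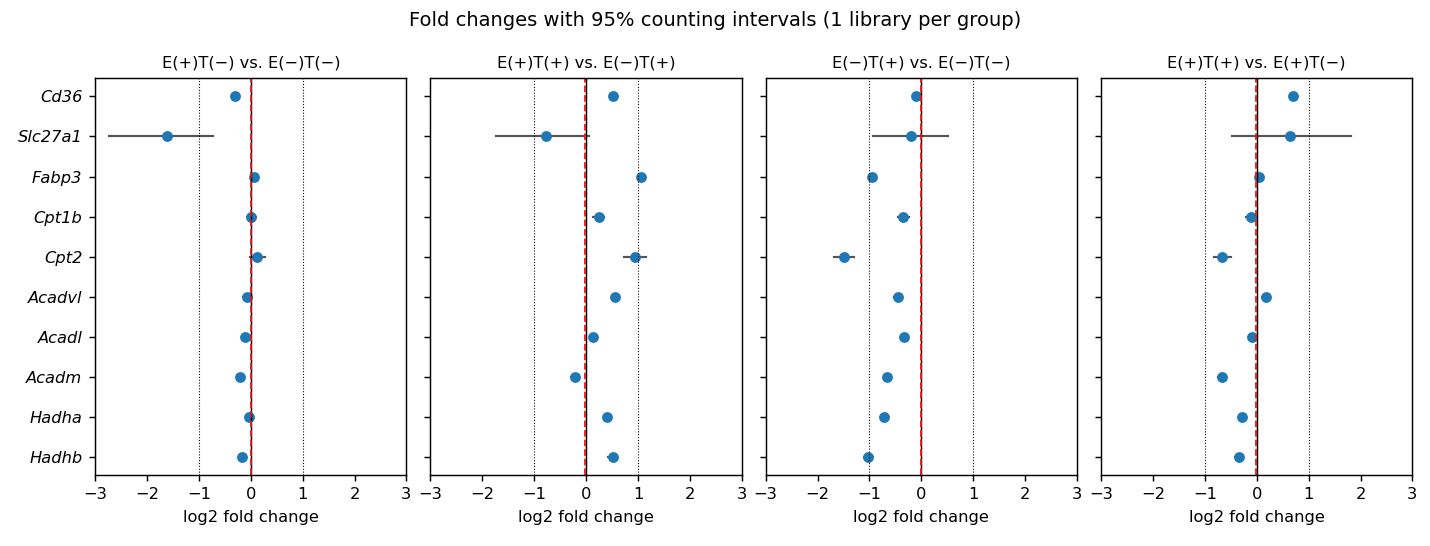
Log2 fold changes of the 10 genes on the horizontal axes in the 4 comparisons, with points for single differences of 1 library against 1 and bars for 95% counting intervals, which are often narrower than the point. Dotted lines mark 2-fold and the red dashed line the median of all genes tested. All 10 points lie left of 0 in E(−)T(+) vs. E(−)T(−), and 8 of 10 lie right of it in E(+)T(+) vs. E(−)T(+), where scaling to library size turns 6 of these to the left.

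The difference between both exercise comparisons was largest for Fabp3, at 1.01 on the log2 scale (0.06 in normal and 1.06 in cancer-bearing mice). Cpt2 and Slc27a1 followed with 0.83 and Cd36 with 0.81. Acadm had −0.21 in both. This difference uses all 4 libraries, 1 per group, and equals the difference between the cancer comparisons, so it adds no independent value and was not tested.

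Ratios of reads within 1 library do not depend on scaling, though they would depend on the mix of cells. The ratio of Acadm to Acadvl was 1.29 (1.24 to 1.35), 1.17 (1.12 to 1.22), 1.12 (1.07 to 1.17) and 0.652 (0.62 to 0.687) in the order of the groups. Only in E(+)T(+) was the medium-chain gene read less often than the very long-chain gene. The ratio of Acadm to Acadl was 0.642, 0.597, 0.506 and 0.398 in the same order and that of Acadm to Hadha 0.696, 0.618, 0.724 and 0.469, so Acadm was lowest in E(+)T(+) against each of the 3 genes.

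The ratio of Cpt1b to Cpt2 was 2.37 (2.16 to 2.60) in E(−)T(−) and 2.20 (2.03 to 2.38) in E(+)T(−), with overlapping intervals. The cancer control had 5.24 (4.63 to 5.95) and the cancer exercise library 3.22 (2.90 to 3.58). Both T(+) libraries thus held more Cpt1b per Cpt2, and the intervals of these 2 libraries did not overlap. The ratio of Hadha to Hadhb was 2.10 (2.01 to 2.19), 2.28 (2.19 to 2.37), 2.56 (2.43 to 2.70) and 2.39 (2.28 to 2.52). It was highest in the cancer control, where its interval overlapped with that of E(+)T(+) but not with that of either normal library. The ratio of Fabp3 to Cd36 was 7.29, 9.31, 4.04 and 5.93, lower in both T(+) libraries than in both normal libraries.

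**Figure D3:**
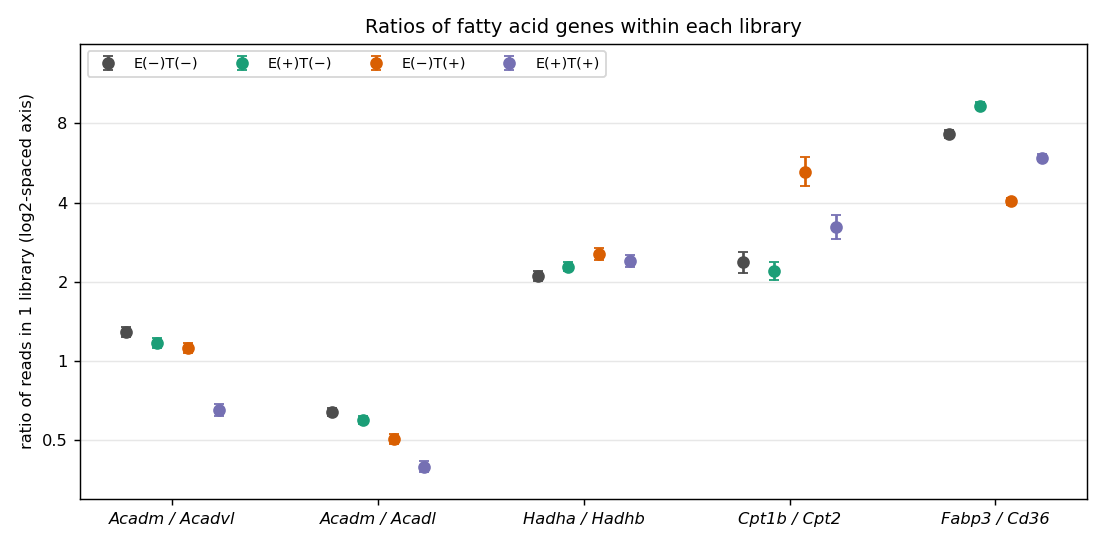
Ratios of reads of 5 gene pairs within each library, on a log2-spaced vertical axis, with points for the 4 libraries and bars for 95% Clopper-Pearson intervals. Acadm per Acadvl is 1.29 in E(−)T(−) and 0.652 in E(+)T(+), and Cpt1b per Cpt2 is highest, at 5.24, in E(−)T(+).

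**Figure D4:**
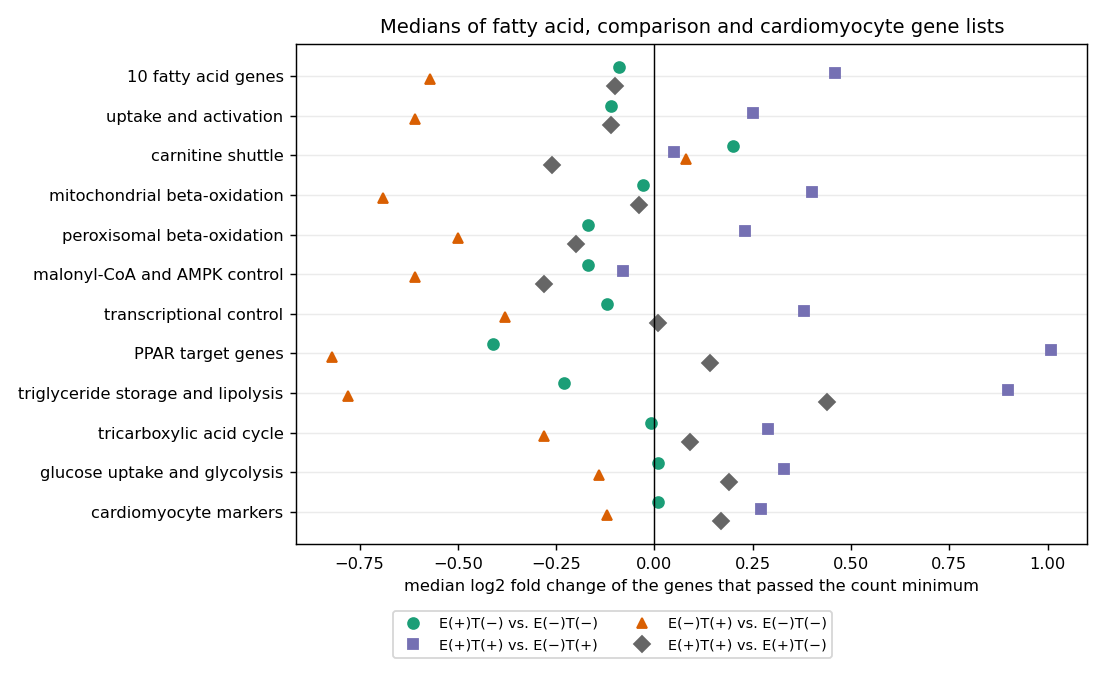
Median log2 fold changes on the horizontal axis of the 10 genes, 8 lists of other fatty acid genes, 2 lists of glucose and tricarboxylic acid cycle genes and the cardiomyocyte markers, with 1 symbol per comparison. Mitochondrial beta-oxidation has −0.69 in E(−)T(+) vs. E(−)T(−) and 0.40 in E(+)T(+) vs. E(−)T(+), and the latter becomes −0.18 when reads are scaled to library size.

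As differences from E(−)T(−), the 10 genes had medians of −0.09, −0.57 and −0.26 in the other libraries, in their order. Hadha lay nearest to this median pattern, at a Euclidean distance of 0.18 on the log2 scale, and Slc27a1 farthest, at 1.73. Of 5925 other genes with at least 100 normalized reads in each library, the nearest were Mylk3, the cardiac myosin light chain kinase, at 0.0397, Spryd4 at 0.0409, Ubn1 at 0.045, Eed, a subunit of Polycomb repressive complex 2, at 0.0547 and Dgkd, a diacylglycerol kinase, at 0.0575. Mylk3 had −0.11, −0.60 and −0.27. Likeness over 3 differences from 1 shared library is a description of these libraries.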

How the data were processed

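Values of 4 heart libraries were used, 1 per group. According to the methods, the authors made QuantSeq 3′ libraries, aligned reads with Bowtie2, used Bedtools to count them per gene, and applied the quantile normalization of edgeR to these counts. The labels name the build mm10, and versions are not given in the sources used here. The deposited values are log2 values of normalized read counts plus a pseudocount of 1. Inverting this step at a dispersion of 0.149 gave back whole reads, which returned each deposited log2 value within 0.0006. Of 24894 values of 5 to 99 reads, 100% lay within 0.1 of a whole read. On simulated data of the 4 libraries, with 16826 genes, 97.7% were recovered exactly.

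Fold changes are differences of deposited values, and their 95% intervals are Clopper-Pearson intervals for the ratio of whole reads. A gene counted as past 2-fold with at least 4 normalized reads in 1 library. No p was computed. Of symbols with several rows, the row with the highest mean was used. The genes and lists were chosen with earlier results of these data known. Named were the 10 genes, the 2 genes of each other list with the largest fold change in a comparison at a mean of at least 16 normalized reads, and the 5 genes nearest in pattern. Not all of these are printed. Of 192 fixed genes 2 were not matched (Gpat3, Epb42). Coordinates and start windows are from RefSeq on GRCm38.p6. Scripts ran in Python 3.11.15 with pandas 2.3.3, scipy 1.17.1 and numpy 2.4.6, and plots were drawn with matplotlib 3.10.9. Alternatives were other scalings, centrings, pseudocounts, count minimums, summed symbols and subsampling.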

Additional observations from a re-analysis of the deposited data

Results flagged for a closer look

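Several genes moved in opposite directions under the same contrast in different mice. In each case 1 library stands on each side, and the difference was not tested.

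With exercise, Acadl had a log2 fold change of −0.11 in normal and 0.13 in cancer-bearing mice, and Acadvl had −0.07 and 0.56. Hadhb had −0.16 and 0.51, and Cd36 had −0.30 and 0.51. In all 4 genes the value was under 0 in normal mice and above 0 in cancer-bearing mice, with counting intervals that did not include 0. With reads scaled to library size all 4 values in cancer-bearing mice lay under 0, and with values centred on the cardiomyocyte markers that of Acadl did.

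With cancer, Acadvl had −0.46 without exercise and 0.17 with it, Cd36 had −0.11 and 0.69, and Fabp3 had −0.96 and 0.04. Slc27a1 also had opposite signs, at −0.20 and 0.64, but both its intervals included 0. Scaled to library size, the values with exercise lay under 0 for Acadvl, Cd36 and Fabp3. Those of Acadvl and Fabp3 also did so without the genes over 1% of a library, and that of Fabp3 when centred on the cardiomyocyte markers. With the latter centring the value of Cd36 without exercise was 0.01 and that with exercise 0.52, so its directions were no longer opposite. The globin share of E(+)T(+), 37.3%, and its 814 reads of Ucp1 are among the values by which that library stood apart. Their part in these differences was not tested.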

How the results depend on the processing

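No paired analysis was possible because each group has 1 library, and for the same reason no replicate could be left out. Each gene past 2-fold on normalized reads kept its direction in that comparison under all alternatives. The gene past 2-fold itself could change. For exercise in cancer-bearing mice it was Fabp3, higher, on normalized reads. On library size and when centred on the cardiomyocyte markers it was Slc27a1, lower, at −1.33 and −1.05. Scaled to library size, the median log2 fold change of the 10 genes was −0.13 for exercise in cancer-bearing mice, and −0.82 with 3 genes past 2-fold for cancer among exercised mice. Scaled to reads outside the 12 genes with over 1% of a library, the latter median was −0.27, and 0 genes were past 2-fold for exercise in cancer-bearing mice. Centred on the cardiomyocyte markers, the medians were 0.19 for exercise in cancer-bearing mice, −0.45 with 1 gene past 2-fold for cancer without exercise, and −0.27 for cancer with exercise. For cancer without exercise 3 genes were past 2-fold on library size and without the genes over 1%, since Fabp3 was then at −1.12. Subsampled to the smallest library, 1 gene, Slc27a1, was past 2-fold for cancer with exercise, at 1.14. Before subsampling it had 13 and 17 reads there, with an interval of −0.47 to 1.82. TMM scaling, centring on all genes, a pseudocount of 4 and summed symbols left the medians, in the order of the report, at −0.09, 0.46 to 0.47, −0.57 to −0.55 and −0.10 to −0.09. TMM sizes differed from the fitted library sizes by only 0.0117 to 0.126%, and the medians of all genes were already −0.012 to 0.002. TMM scaling and centring on all genes could therefore move little and are no check of stability. A count minimum of 16 or none left all 4 counts past 2-fold as they were. Of 40 values of single genes per alternative, 26 moved beyond counting error on library size, 22 without the genes over 1% and 26 when centred on cardiomyocyte markers. Each of these 3 settings shifts all genes of a comparison by nearly the same amount. On library size, for example, the median of all genes was −0.74 for cancer with exercise. The values that moved are those where this shift exceeded the counting interval. What lay behind the size of the shifts was not tested. Depth limited Slc27a1, with 13 to 37 reads, most.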
